A study of Mus musculus with 9 samples.

Results

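The potassium channel gene family was followed in 9 RNA-seq libraries of mouse ovary. Members were all protein-coding genes whose GENCODE M21 symbol begins with Kcn, which gave 94 of the 55536 genes listed and of the 22028 protein-coding ones; 5 Kcn symbols of other gene types were left out. The rule uses symbols only and no measured value. The 9 libraries fell into 3 groups of 3. Granulosa cell tumours and hyperplastic ovaries came from mice labelled FOXL2 WT/C134W, heterozygous for a change in the forkhead factor FOXL2, which maintains granulosa cells, the somatic cells around the oocyte. Wild-type ovaries came from mice labelled FOXL2 WT/WT. Strain, age, and how the allele was made are not in the labels used here, and all libraries were made from dissected ovary tissue, not from sorted cells. The stated aim of the series is to find genes that differ between tumours and normal ovaries. Here the Kcn genes are followed for which channels of excitable cells were higher or lower in the lesions.

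Potassium channels let potassium leave the cell and so pull the membrane towards a negative resting potential. Pore subunits of the voltage-gated classes open on depolarisation and end action potentials in neurons and muscle, calcium- and sodium-activated pores open when those ions enter, and inward rectifiers and tandem-pore (K2P) leak channels set the resting potential. Accessory subunits and electrically silent modifiers form no channel alone but change how the pores open, where they sit and which hormones or second messengers act on them. Granulosa and luteal cells are not classical excitable cells, but they carry potassium currents that have been linked to their steroid output and division.

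By structure, the 94 members were 17 voltage-gated pores of the Kv1 to Kv4 groups, 17 accessory subunits, 15 inward rectifiers, 14 K2P leak channels, 10 silent modifiers, 8 pores of the EAG, ERG and ELK groups, 8 calcium- or sodium-activated pores and 5 KCNQ pores. Reads were found for 90 members in at least 1 library. A filter on low counts, which asked for about 0.634 CPM (counts scaled to a common library size) in at least 3 libraries, kept 59 members (62.8%) for testing; 35 of these were at that level in all 9 libraries. Of the others tested, 10 reached it in all 3 libraries of exactly 1 group (6 in hyperplasia and 4 in wild type, 0 in tumours), so counts over the tested members are descriptions of those that passed and not of the whole family.

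Libraries held 11661851 (tumour 3) to 20890537 (wild type 1) counts on genes, and mitochondrial genes took 2.54% to 4.18%. Tumour 2 and wild type 1 stood apart from their groups: across genes, tumour 2 correlated with the other tumours at 0.898 and 0.908, against 0.974 between tumours 1 and 3, and wild type 1 with the other wild types at 0.914 and 0.922, against 0.975 between wild types 2 and 3. All 9 granulosa cell markers had counts in each group, and their summed level was 3758 to 4747 CPM in tumours, 942 to 2930 CPM in hyperplasia and 1654 to 3370 CPM in wild type. Inha held most of that sum in tumours (2402 to 3021 CPM), and the other 8 markers summed to 938 to 1726 CPM in tumours, 443 to 1297 CPM in hyperplasia and 897 to 1156 CPM in wild type, so that the groups overlapped. Amh was at 7.81, 0.0975 and 39.4 CPM in tumours, 6.59 to 16.3 CPM in hyperplasia and 211 to 222 CPM in wild type, and Fshr had 0 counts in tumour 2. The oocyte markers Figla, Nlrp5, Oosp1 and Zp2 were at 0 counts in all 3 tumours. The labels do not say that samples came from separate animals, and hyperplasia 3 and tumour 3 have titles with a common stem; each p-value thus describes only how these samples spread. In whole tissue, fewer cells of a type and less RNA per cell cannot be told apart.

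Promoters of the 3 members that passed the test in tumours and have a RefSeq entry are shown, so that their base composition can be set beside that of the family. Each is read 5′ to 3′ on the gene's strand, from 250 bases before to 50 after a RefSeq start site (build GRCm38.p6), with CG dinucleotides in capitals.
Kcnk5, chr14:20181733-20182032, minus strand: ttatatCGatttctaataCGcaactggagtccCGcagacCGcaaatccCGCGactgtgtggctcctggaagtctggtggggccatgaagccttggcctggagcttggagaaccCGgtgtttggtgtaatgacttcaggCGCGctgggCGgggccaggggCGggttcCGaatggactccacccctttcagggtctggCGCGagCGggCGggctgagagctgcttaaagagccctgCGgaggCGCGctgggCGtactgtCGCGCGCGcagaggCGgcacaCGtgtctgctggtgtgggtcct
Kcnq5, chr1:21962601-21962900, minus strand, the start annotated farthest upstream: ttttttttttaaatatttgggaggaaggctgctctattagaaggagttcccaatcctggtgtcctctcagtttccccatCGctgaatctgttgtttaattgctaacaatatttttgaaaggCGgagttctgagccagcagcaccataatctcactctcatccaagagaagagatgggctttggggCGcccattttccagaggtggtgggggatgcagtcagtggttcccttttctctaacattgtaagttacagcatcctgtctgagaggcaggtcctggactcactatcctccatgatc
Kcna2, chr3:107101317-107101616, plus strand: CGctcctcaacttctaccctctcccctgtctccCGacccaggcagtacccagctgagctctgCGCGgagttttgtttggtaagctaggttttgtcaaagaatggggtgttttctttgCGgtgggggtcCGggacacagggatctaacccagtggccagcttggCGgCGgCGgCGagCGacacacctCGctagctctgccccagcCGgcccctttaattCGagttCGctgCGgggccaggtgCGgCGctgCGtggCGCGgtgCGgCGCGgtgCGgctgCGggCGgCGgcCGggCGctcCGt
The Kcnk5 and Kcna2 windows were rich in CG dinucleotides, with 26 and 31 of them and a GC content of 63.7% and 66.7%. The Kcnq5 window held 3 CG dinucleotides at a GC content of 46.0%. It lies wholly upstream of the GENCODE M21 gene (chr1:21398403-21961942) and describes the farthest upstream start only. Over the 69 members with an entry (94 promoters of 300 bases) the median was 9 CG dinucleotides and 58.0% GC, and it was 7 and 52.7% over all 32851 promoters. The forkhead-type motif GTAAACA, searched on both strands, was in 0 of the 94 member promoters, against 3.65% of all promoters. The motif AAGGTCA, of the kind bound by the steroidogenic factor Nr5a1, was in 3 (3.19%; Kcnf1, Kcnh1 and Kcnj16), against 4.72% of all; neither motif contains the other. A match or its absence in such a window is a description of these letters only.

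In tumours against wild-type ovaries, a leak channel and a KCNQ channel rose while a Kv1 pore and a Kv1 accessory subunit fell. Kcnk5 rose 4.78-fold and Kcnq5 7.14-fold in tumours, and Kcnab3 and Kcna2 fell 14.6-fold and 12.1-fold. These 4 of the 59 tested members (6.78%) passed edgeR's quasi-likelihood test at an adjusted p under 0.05, against 1.60% of all 16213 genes tested (0.352% higher and 1.25% lower). At an unadjusted p under 0.05 stood 26 members (44.1%), 13 higher and 13 lower, against 20.1% of all genes (8.41% higher and 11.7% lower). The 3 tumours did not overlap the 3 wild types in 24 members (40.7%), 11 higher and 13 lower, against 24.1% of all genes (10.6% higher and 13.4% lower). The members' median log2 fold change was 0.01, as for all genes (0.01), with a range of -4.08 (Kcnj16) to 4.61 (Kcne4).

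**Figure D1:**
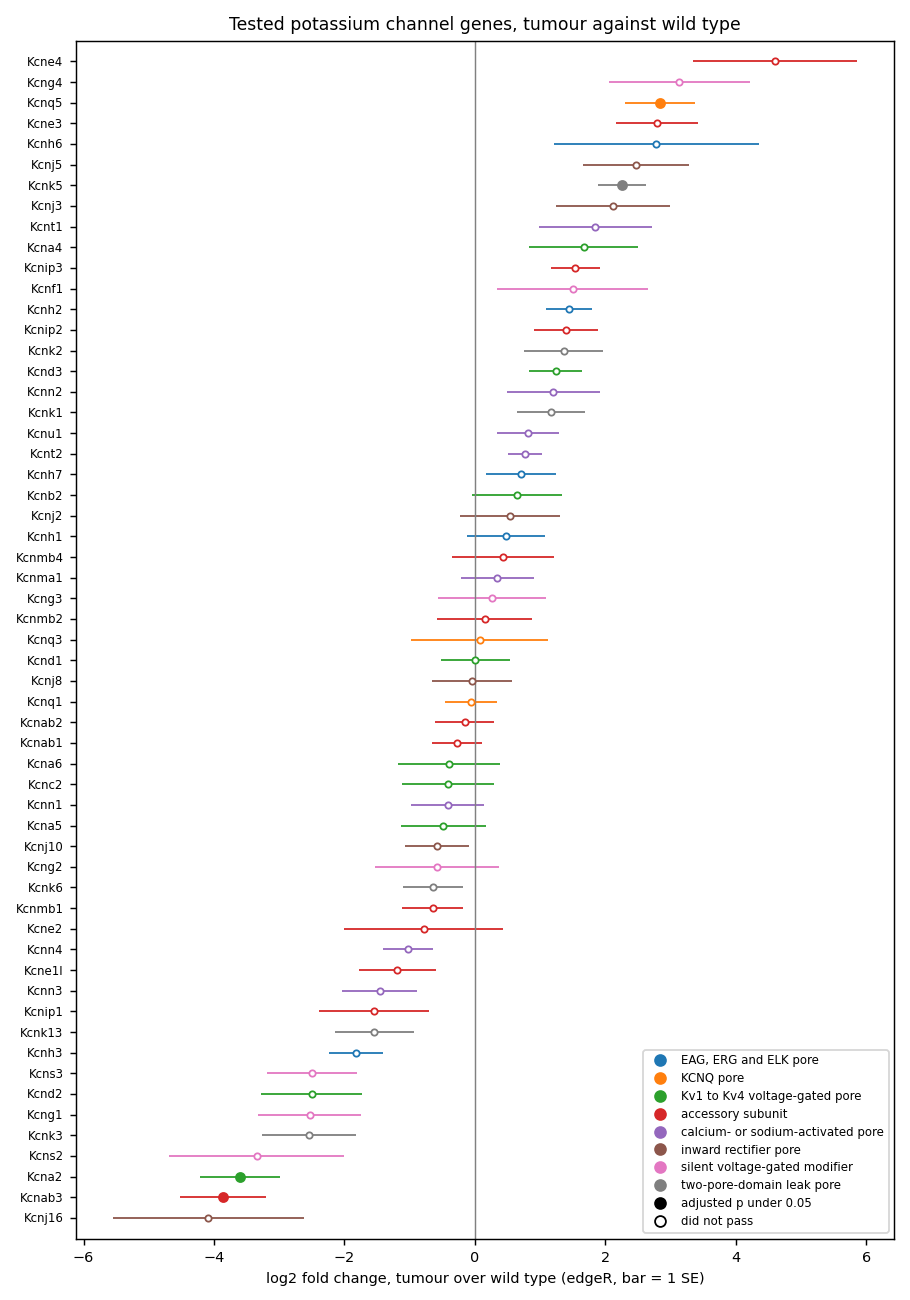
Log2 fold change of tumour over wild type (horizontal axis) for 57 of the 59 tested members, ordered by size down the page and coloured by structural class; bars are 1 standard error and filled points passed an adjusted p under 0.05. Kcnk5 and Kcnq5 are filled on the right, Kcna2 and Kcnab3 on the left, and several larger changes (Kcne4, Kcnj16) have wide bars and open points.

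Kcnk5 encodes TASK2, an acid-sensitive K2P leak channel that opens when the outside turns alkaline (gene at chr14:20140057-20181809 on GRCm38, minus strand). Its level was 64.9, 91.0 and 49.9 CPM in tumours 1, 2 and 3, against 11.2, 15.6 and 16.3 CPM in wild types 1, 2 and 3. All 3 tumours lay above all 3 wild types, with hyperplasia between at 29.3, 17.6 and 42.5 CPM. The log2 fold change of tumour over wild type was 2.26 (SE 0.37, edgeR adjusted p = 0.0355). Per length, its mean was 27.6 TPM in tumours, 16.1 TPM in hyperplasia and 7.91 TPM in wild type.

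Kcnq5 encodes Kv7.5, a pore of the slow, muscarine-sensitive M-current that damps firing in neurons and sets tone in smooth muscle (chr1:21398403-21961942, minus strand). It stood at 79.4, 42.3 and 33.4 CPM in tumours, against 4.77, 5.36 and 11.6 CPM in wild types, with no overlap. The hyperplasia libraries stood at 24.6, 8.19 and 17.9 CPM, hyperplasia 2 within the wild-type range. The log2 fold change of tumour over wild type was 2.84 (SE 0.54, edgeR adjusted p = 0.0451).

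Kcnab3 encodes a cytoplasmic beta subunit of Kv1 channels (chr11:69326258-69333042, plus strand). It was at 5.16, 8.78 and 8.82 CPM in tumours, at 87.5, 71.1 and 42.5 CPM in hyperplasia and at 229.6, 43.4 and 58.0 CPM in wild type. All tumours lay below all other libraries, and wild type 1 lay far above the other wild types. Its log2 fold change of tumour over wild type was -3.86 (SE 0.66, edgeR adjusted p = 0.0404). The summed level of 8 luteal cell markers moved with it, at 1391, 3019 and 1357 CPM in tumours, 11736, 12472 and 6717 CPM in hyperplasia, and 21406, 7776 and 10494 CPM in wild type. Of these 8 markers 3 passed the test as lower in tumours (37.5%, against 1.25% of all genes) and 0 as higher, and 0 were at 0 counts in any group. Their part in the fall of Kcnab3 was not tested.

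Kcna2 encodes Kv1.2, a delayed rectifier of axons (chr3:107101146-107115005, plus strand). It was low throughout, at 0.0662, 0.0975 and 0.252 CPM in tumours (5 counts in all), against 1.09, 1.94 and 2.18 CPM in wild types; hyperplasia stood with wild type at 1.93, 1.59 and 1.25 CPM. The log2 fold change of tumour over wild type was -3.60 (SE 0.62, edgeR adjusted p = 0.0404). The summed level of 8 neuron markers was 8.68 to 10.4 CPM in tumours, 15.3 to 44.4 CPM in hyperplasia and 28.1 to 49.2 CPM in wild type. Nefl was at 0 counts in wild type, and no marker was at 0 in all tumours or all hyperplasias. Tubb3 alone stood at 6.95, 4.88 and 2.60 CPM in tumours and 12.7, 35.7 and 18.1 CPM in wild type. Snap25 ran the other way in tumours 2 and 3 (0.878 and 0.336 CPM, against 0.0497 to 0.118 CPM in wild type). Of the 6 markers tested, 5 were fitted lower in tumours and 1 higher, and 1 was called lower (16.7%, against 1.25% of all genes). Their part in the fall of Kcna2 was not tested. Its neighbours on the chromosome, Kcna3 and Kcna10, 63.1 and 68.0 kb away, were too low to be tested, and Kcna10 was at 0 counts in all 9 libraries.

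The 4 calls stood near the threshold. With all libraries kept and a term for the title stem that hyperplasia 3 and tumour 3 share, edgeR called 0 members, and the 4 stood at an adjusted p of 0.0585 (Kcnk5), 0.0685 (Kcna2), 0.0700 (Kcnq5) and 0.0730 (Kcnab3). Leaving out any 1 of the 6 tumour and wild-type libraries also ended all 4. Over the 4 members, edgeR's adjusted p was 0.123 to 0.127 without tumour 1, 0.0539 to 0.0621 without tumour 2 and 0.0947 to 0.1002 without tumour 3. It was 0.0518 to 0.114 without wild type 1, 0.0571 to 0.124 without wild type 2 and 0.0654 to 0.0955 without wild type 3. Without hyperplasia 2, which shares in the estimate of the spread, Kcnk5 alone was called (0.0422), and the other 3 stood at 0.0540 to 0.0679. With tumour 2 and wild type 1 both left out, which was decided after their values were seen, 0 members were called, 29 stood at an unadjusted p under 0.05, and the log2 fold changes were 1.82 for Kcnk5, 2.701 for Kcnq5, -2.89 for Kcnab3 and -3.72 for Kcna2. Leaving out wild type 1 alone moved Kcnab3 to -2.74.

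**Figure D2:**
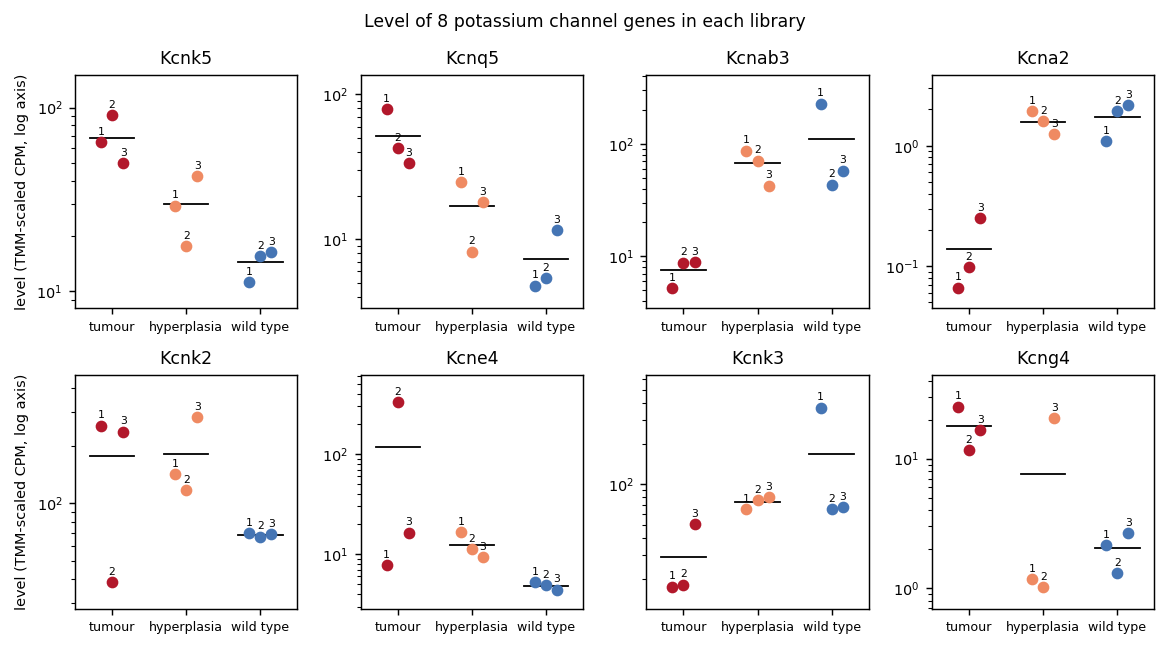
Level of 8 members in each library (TMM-scaled CPM on a log axis that differs between panels), with tumour, hyperplasia and wild type from left to right; points are libraries, numbered by replicate, and lines are group means. In the upper row the 4 members that passed the test separate all tumours from all wild types. For Kcnab3 there, wild type 1 lies far above the other wild types. In the lower row tumour 2, wild type 1 or hyperplasia 3 lies far from its group.

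Among K2P leak channels, 6 of 14 were tested and 1, Kcnk5, passed (16.7%, against 1.60% of all genes). Kcnk2 encodes TREK1, a leak channel opened by membrane stretch and lipids. It was at 254, 38.7 and 236 CPM in tumours, 142, 117 and 283 CPM in hyperplasia, and 70.02, 66.8 and 68.8 CPM in wild type. Tumours 1 and 3 and all hyperplasias lay above the wild types and tumour 2 below them, and the log2 fold change of tumour over wild type was 1.36 (SE 0.60, edgeR adjusted p = 0.247). Kcnk3 encodes TASK1, an acid-sensitive leak channel of the adrenal cortex and the pulmonary artery. Its levels were 17.4, 18.0 and 51.0 CPM in tumours, 65.6, 76.5 and 80.2 CPM in hyperplasia, and 369.7, 65.6 and 67.6 CPM in wild type. The tumours lay below all other libraries, but wild type 1 alone carried the high wild-type mean (-2.54, SE 0.72, edgeR adjusted p = 0.0996), as it did for Kcnab3 and for the luteal markers.

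Kcnk1, which encodes the weakly rectifying TWIK1, stood at 20.5, 77.2 and 26.0 CPM in tumours, 15.8, 12.0 and 19.5 CPM in hyperplasia and 11.9, 15.7 and 27.6 CPM in wild type, so tumours lay above hyperplasia but overlapped wild type. Kcnk13 encodes THIK1, a leak channel best known from microglia. It was at 0.199, 1.27 and 0.588 CPM in tumours, 1.39, 1.59 and 1.20 CPM in hyperplasia and 2.04, 2.24 and 1.61 CPM in wild type, with wild type above both lesion groups (tumour over wild type -1.54, SE 0.60, edgeR adjusted p = 0.197). Between hyperplasia 2 (22 counts) and wild type 3 (28 counts) the gap was so narrow that counting error could close it. Per length, Kcnk13 in hyperplasia 1 and 2 (0.81 and 0.93 TPM) lay above wild type 1 (0.78 TPM). The summed level of 6 macrophage markers was 70.2 to 89.8 CPM in tumours, 155 to 209.9 CPM in hyperplasia and 129.9 to 224.7 CPM in wild type, none of the markers was at 0 in a group, and their part in the Kcnk13 level was not tested. Kcnk6 overlapped between the groups at 1.66 to 5.72 CPM, and the other 8 K2P genes, Kcnk4, Kcnk7, Kcnk9, Kcnk10, Kcnk12, Kcnk15, Kcnk16 and Kcnk18, were too low to be tested.

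Of the 5 KCNQ pores 4 were tested and 1, Kcnq5, passed (25.0%, against 1.60% of all genes). Kcnq1, the cardiac Kv7.1 pore, stood at 4.54 to 10.9 CPM in tumours, 5.46 to 7.24 CPM in hyperplasia and 5.75 to 7.81 CPM in wild type. Kcnq3, an M-current pore, ranged from 0.0975 to 3.86 CPM in tumours, 3.77 to 5.51 CPM in hyperplasia and 0.348 to 4.54 CPM in wild type.

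In the EAG, ERG and ELK groups 5 of 8 were tested and 0 passed edgeR's test (1.60% of all genes). Of the 5, 2 stood at an unadjusted p under 0.05 (40.0%, against 20.1% of all genes). Kcnh2, the ERG1 pore that repolarises the heart, was the highest of them, at 82.6, 72.7 and 126 CPM in tumours, 58.4, 35.5 and 78.0 CPM in hyperplasia and 29.3, 28.4 and 46.1 CPM in wild type. All tumours lay above all wild types (log2 fold change 1.44, SE 0.35, edgeR adjusted p = 0.0702). Kcnh3, a neuronal ELK pore, ran the other way, at 0.927, 1.17 and 1.34 CPM in tumours, 1.98, 1.88 and 2.11 CPM in hyperplasia and 5.47, 2.77 and 3.97 CPM in wild type. None of its 3 groups overlapped another (tumour over wild type -1.82, SE 0.41, edgeR adjusted p = 0.0614). Kcnh1 overlapped between the groups at 3.08 to 14.4 CPM and Kcnh7 at 0.589 to 2.65 CPM, and Kcnh6 ran from 0 to 5.96 CPM within the tumours. Kcnh4, Kcnh5 and Kcnh8 were too low to be tested.

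All 8 calcium- or sodium-activated pores were tested, and 0 passed edgeR's test in tumours against wild type (1.60% of all genes). Of the 8, 3 stood at an unadjusted p under 0.05 (37.5%, against 20.1% of all genes). Kcnt2 encodes Slick, a sodium-activated pore. It was at 52.8, 68.8 and 77.2 CPM in tumours, 76.9, 66.3 and 80.1 CPM in hyperplasia and 28.0, 36.9 and 52.0 CPM in wild type, with both lesion groups above wild type (tumour over wild type 0.76, SE 0.26, edgeR adjusted p = 0.147). Per length, Kcnt2 overlapped between tumours (13.9 to 24.4 TPM) and wild type (5.52 to 17.5 TPM). Kcnt1, its relative Slack, was at 22.6, 3.71 and 37.4 CPM in tumours, 8.62, 5.65 and 30.9 CPM in hyperplasia and 3.08, 5.30 and 9.31 CPM in wild type, high in 2 tumours and in hyperplasia 3. Kcnn4, the intermediate-conductance channel of blood and immune cells, stood at 1.13, 0.780 and 1.34 CPM in tumours, 2.36, 2.54 and 2.35 CPM in hyperplasia and 2.29, 2.18 and 2.18 CPM in wild type, with tumours below and edgeR adjusted p = 0.177. Per length, Kcnn4 in tumour 3 (1.70 TPM) lay above wild type 1 (1.40 TPM). The small-conductance pore Kcnn3 was at 1.32, 0.683 and 1.26 CPM in tumours and 1.69, 3.83 and 3.56 CPM in wild type (adjusted p = 0.202). Kcnma1, the large-conductance (BK) pore, overlapped at 30.2 to 64.3 CPM in tumours, 38.5 to 66.4 CPM in hyperplasia and 9.50 to 55.3 CPM in wild type, as did Kcnn1, Kcnn2 and Kcnu1, the last a sperm channel in textbook accounts.

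In the inward rectifiers 6 of 15 were tested and 0 passed edgeR's test in tumours against wild type (1.60% of all genes). Of the 6, 3 stood at an unadjusted p under 0.05, against 20.1% of all genes. Kcnj3 and Kcnj5 encode GIRK1 and GIRK4, which join into the acetylcholine-gated channel of the atrium. Kcnj3 stood at 76.7, 3.32 and 52.4 CPM in tumours, 18.9, 9.49 and 35.8 CPM in hyperplasia and 10.5, 9.66 and 10.4 CPM in wild type, so tumours 1 and 3 lay above all wild types and tumour 2 below them (log2 fold change 2.12, SE 0.87, edgeR adjusted p = 0.218). Kcnj5 stood at 9.73, 3.80 and 2.86 CPM in tumours, 0.803, 0.0725 and 1.25 CPM in hyperplasia and 1.19, 0.589 and 1.15 CPM in wild type, with all tumours above the rest (2.48, SE 0.82, edgeR adjusted p = 0.136). Kcnj16, the Kir5.1 pore of kidney and glia, was at 0, 0 and 0.336 CPM in tumours, 1.66, 3.12 and 0.527 CPM in hyperplasia and 3.58, 2.24 and 0.115 CPM in wild type, where wild type 3 overlapped the tumours. Its neighbour Kcnj2, 38.2 kb away, overlapped at 2.77 to 20.9 CPM in tumours, 1.58 to 5.94 CPM in hyperplasia and 3.28 to 8.55 CPM in wild type. Kcnj8, the pore of a vascular ATP-sensitive channel, and the glial Kcnj10 also overlapped between the groups. The other 9, Kcnj1, Kcnj4, Kcnj6, Kcnj9, Kcnj11, Kcnj12, Kcnj13, Kcnj14 and Kcnj15, were too low to be tested, Kcnj1 and Kcnj13 at 0 counts in all libraries.

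Of the 17 pores in the Kv1 to Kv4 groups 10 were tested and 1, Kcna2, passed, against 1.60% of all genes. Of the 10, 3 stood at an unadjusted p under 0.05, against 20.1% of all genes. Kcnd2 and Kcnd3 encode Kv4.2 and Kv4.3, the fast A-type pores of dendrites and heart, and their values ran opposite ways. Kcnd2 stood at 13.6, 0.683 and 8.90 CPM in tumours, 26.2, 44.2 and 22.3 CPM in hyperplasia and 28.0, 51.9 and 52.3 CPM in wild type. All tumours lay below all other libraries, tumour 2 lowest (tumour over wild type -2.50, SE 0.77, edgeR adjusted p = 0.121). Kcnd3 stood at 28.7, 29.5 and 49.9 CPM in tumours, 35.4, 18.8 and 35.3 CPM in hyperplasia and 8.31, 21.3 and 16.2 CPM in wild type. In CPM its tumours lay above wild type (1.24, SE 0.41, edgeR adjusted p = 0.135). Per length, Kcnd3 in tumour 2 (4.35 TPM) lay below wild type 2 (5.57 TPM). Kcna4, Kcna5, Kcna6, Kcnb2, Kcnc2 and Kcnd1 overlapped between tumours and wild type, the highest of them by mean Kcnd1 at 2.69 to 5.03 CPM in tumours, 2.68 to 5.87 CPM in hyperplasia and 1.74 to 5.59 CPM in wild type. Kcna1, Kcna3, Kcna7, Kcna10, Kcnc1 and Kcnc4 were too low to be tested.

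The silent modifiers, which join Kv2 pores, had 7 of 10 members tested, of which 0 passed edgeR's test (1.60% of all genes). Of the 7, 4 stood at an unadjusted p under 0.05 (57.1%, against 20.1% of all genes). Kcng4 was at 25.2, 11.7 and 16.7 CPM in tumours, 1.18, 1.01 and 20.6 CPM in hyperplasia and 2.14, 1.296 and 2.64 CPM in wild type. Hyperplasia 3, which shares its title stem with tumour 3, stood with the tumours, and the other 2 hyperplasias lay below every wild type (tumour over wild type 3.14, SE 1.08, edgeR adjusted p = 0.149). Kcng1 ran the other way, at 0.132, 0.683 and 0.252 CPM in tumours, 2.94, 3.62 and 1.25 CPM in hyperplasia and 1.09, 3.71 and 1.26 CPM in wild type (-2.53, SE 0.79, edgeR adjusted p = 0.123). Kcns3 stood at 0.199, 0.488 and 0.0840 CPM in tumours and 1.59, 1.296 and 1.44 CPM in wild type, and Kcns2 at 0.0662, 0.488 and 0 CPM in tumours and 1.19, 1.88 and 2.36 CPM in wild type, both without overlap and without passing the test. Wild type was the only group in which every library of Kcns2 and Kcns3 reached the filter's level. Their lack of overlap is thus partly set by the filter. Kcnf1 varied most within the tumours, at 64.3, 0.390 and 36.1 CPM, against 10.8, 9.64 and 30.1 CPM in hyperplasia and 4.38, 15.02 and 16.4 CPM in wild type. Kcng2 and Kcng3 overlapped between the groups, and Kcns1, Kcnv1 and Kcnv2 were too low to be tested.

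Tumour 2 was low in Kcnf1, Kcnj3 and Kcnk2, where tumours 1 and 3 were high. The summed level of 7 surface epithelium markers was 1859, 1.46 and 698 CPM in tumours 1, 2 and 3, 246, 322 and 765 CPM in hyperplasia, and 256, 264 and 296 CPM in wild type, with no marker at 0 in all libraries of a group. Its part in those 3 members' levels was not tested. Over the 59 tested members, tumour 2 was the lowest tumour in 25 and the highest in 17, and wild type 1 the lowest wild type in 31 and the highest in 20.

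Accessory subunits had 13 of 17 members tested and 1, Kcnab3, passed (7.69%, against 1.60% of all genes). Of the 13, 5 stood at an unadjusted p under 0.05 (38.5%, against 20.1% of all genes). Kcnip3 encodes a calcium-binding protein that joins Kv4 pores and also represses transcription. It was at 84.4, 55.6 and 58.8 CPM in tumours, 24.9, 15.7 and 45.2 CPM in hyperplasia and 26.2, 17.5 and 24.5 CPM in wild type, with all tumours above both other groups (tumour over wild type 1.54, SE 0.38, edgeR adjusted p = 0.0722). Its relative Kcnip2 also lay above both other groups in tumours, at lower levels, 2.52, 2.63 and 3.61 CPM in tumours and 1.09, 1.41 and 0.805 CPM in wild type (adjusted p = 0.158). Per length, Kcnip3 in tumour 2 (27.6 TPM) lay below hyperplasia 3 (34.7 TPM). Kcnip2 in tumour 2 (1.56 TPM) lay below hyperplasia 3 (2.12 TPM) and wild type 2 (1.72 TPM).

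Kcne3 and Kcne4 encode single-span subunits that change how KCNQ and other pores gate. Kcne3 was at 10.2, 21.5 and 4.37 CPM in tumours, 5.14, 2.17 and 2.83 CPM in hyperplasia and 1.89, 2.18 and 1.09 CPM in wild type, with tumours above wild type (log2 fold change 2.795, SE 0.63, edgeR adjusted p = 0.0620). Kcne4 was at 7.81, 333 and 16.5 CPM in tumours, 16.5, 11.2 and 9.35 CPM in hyperplasia and 5.22, 4.95 and 4.43 CPM in wild type. Both lesion groups lay above wild type, but tumour 2 alone made the large fold change of 4.61 (SE 1.26, edgeR adjusted p = 0.0910).

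Kcnmb1, the BK beta subunit of smooth muscle, stood out in hyperplasia instead, at 3.38, 5.66 and 7.64 CPM in tumours, 24.2, 30.8 and 15.8 CPM in hyperplasia and 5.62, 14.3 and 6.21 CPM in wild type. The summed level of 8 smooth muscle markers moved with it, at 499, 420.2 and 1092 CPM in tumours, 4468, 6362 and 2663 CPM in hyperplasia and 1975, 2605 and 1198 CPM in wild type; 0 of these markers were at 0 in a group, and their part in the Kcnmb1 level was not tested. Kcne1l lay lower in tumours at 0.662, 0.195 and 0.336 CPM, against 1.24, 0.766 and 0.805 CPM in wild type, without passing the test. Wild type was the only group in which all its libraries reached the filter's level, so this is partly set by the filter. Kcnab1, Kcnab2, Kcne2, Kcnip1, Kcnmb2 and Kcnmb4 overlapped between tumours and wild type, and Kcne1, Kcnip4, Kcnmb3 and Kcnrg were too low to be tested.

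The other comparisons share libraries with the first, so their values are given side by side and not as further evidence. Between hyperplasia and wild type 0 members were called, as were 0.0% of all genes, by edgeR, and also by DESeq2's Wald test and limma-voom for the members. At an unadjusted p under 0.05 stood 7 members (11.9%; 3.53% of all genes), 6 higher (1.41% of all genes) and Kcnh3 lower (2.12% of all genes). The groups did not overlap in 13 members (22.0%; 9.81% of all genes), 10 higher (4.63% of all genes) and 3 lower (5.18% of all genes). The members' median log2 fold change of hyperplasia over wild type was 0.25, against -0.00 for all genes. Among those without overlap were Kcnt2 at 0.93 (SE 0.26), Kcnmb1 at 1.44 (SE 0.47), Kcnk5 at 1.06 (SE 0.35) and Kcnk2 at 1.40 (SE 0.60), each with edgeR adjusted p = 0.999.

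Between tumours and hyperplasia edgeR called 0 members, against 0.185% of all genes. DESeq2's Wald test called 7 members and limma-voom 0, and their counts over all genes are given at the end. At an unadjusted p under 0.05 stood 18 members (30.5%; 14.1% of all genes), 8 higher (4.71% of all genes) and 10 lower (9.39% of all genes). The groups did not overlap in 20 (33.9%; 21.9% of all genes), 6 higher (9.54% of all genes) and 14 lower (12.4% of all genes), and the median log2 fold change was -0.17, against 0.05 for all genes. Of the non-overlapping ones with a mean of at least 1 CPM, Kcnj16 stood lowest at -3.91 (SE 1.46, edgeR adjusted p = 0.285), followed by Kcna2 at -3.47 (SE 0.62, adjusted p = 0.0659) and Kcnab3 at -3.15 (SE 0.64, adjusted p = 0.0844). Kcnj5 stood highest of them at 2.91 (SE 0.83, adjusted p = 0.182), and Kcnk5 and Kcnq5 were at 1.20 (SE 0.35) and 1.61 (SE 0.51).

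With the 6 FOXL2 WT/C134W libraries set against the 3 wild types, edgeR called 0 members and 0.0123% of all genes. DESeq2's Wald test called 9 members and limma-voom 0, and their counts over all genes are given at the end. At an unadjusted p under 0.05 stood 17 members (28.8%; 11.8% of all genes), 10 higher (3.97% of all genes) and 7 lower (7.88% of all genes). All 6 mutant libraries lay beyond all wild types in 6 members (10.2%; 4.32% of all genes): Kcnk5, Kcnt2 and Kcne4 above (1.63% of all genes), and Kcnh3, Kcns2 and Kcnk13 below (2.69% of all genes). Kcns2 reached the filter's level throughout wild type alone, so its place here is partly set by the filter. Per length (TPM), Kcnt2, Kcns2 and Kcnk13 overlapped wild type. The members' median was 0.11, against -0.01 for all genes. Kcnk5 had the smallest adjusted p, 0.0890, at a log2 fold change of 1.66 (SE 0.33).

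**Figure D3:**
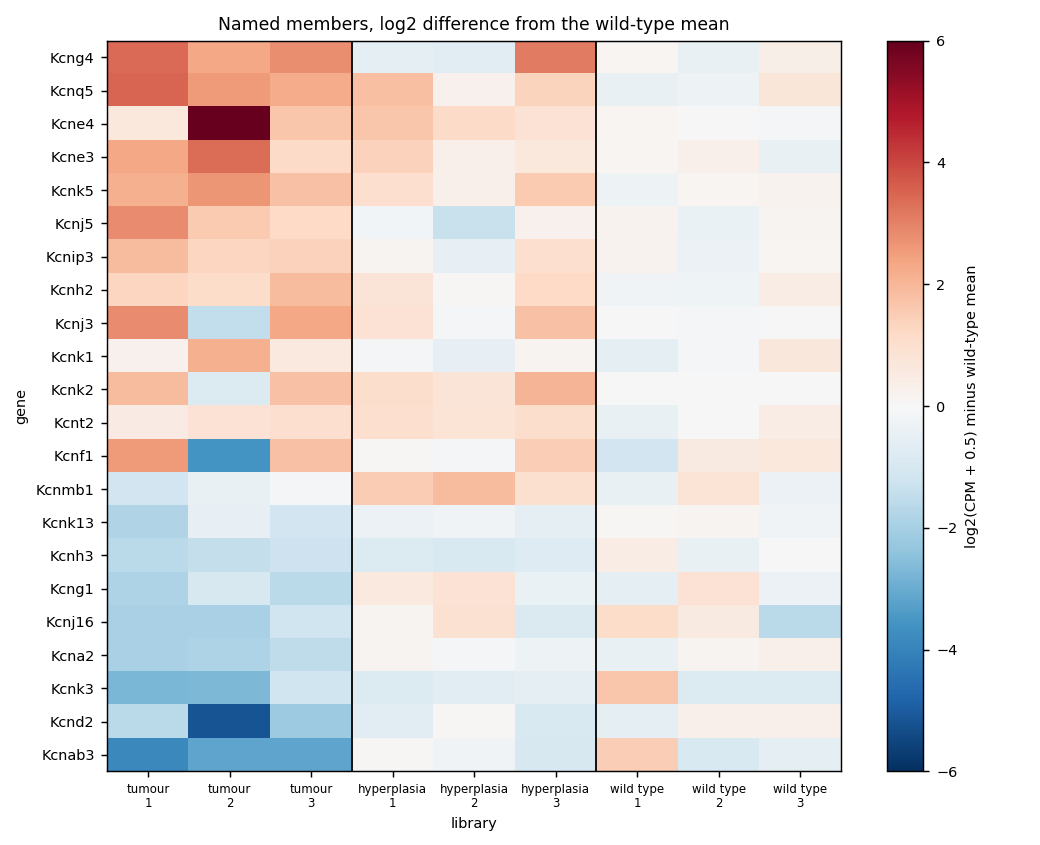
Difference of log2(CPM + 0.5) from the wild-type mean for 22 members (down the page) in each of the 9 libraries (tumour, hyperplasia and wild type from left to right); red is higher and blue lower than wild type. Kcnk5, Kcnq5, Kcnip3 and Kcnh2 are red in all tumours and Kcna2 and Kcnab3 blue in all tumours, while Kcne4, Kcnf1, Kcnj3 and Kcnk2 differ in tumour 2 from the other tumours.

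Levels per length put few members in front. In tumours the highest mean levels were Kcnk2 at 117 TPM, Kcne4 at 48.0, Kcnip3 at 47.1, Kcnh2 at 40.9 and Kcnk5 at 27.6 TPM; the SDs of the first 2 (86.9 and 69.5 TPM, n = 3) were so large that their place rests on tumours 1 and 3 for Kcnk2 and on tumour 2 for Kcne4. In hyperplasia they were Kcnk2 at 131 TPM, Kcnab3 at 54.2, Kcnk3 at 33.7, Kcnh2 at 30.6 and Kcnt2 at 23.9 TPM. In wild type they were Kcnab3 at 70.4 TPM, Kcnk3 at 58.2, Kcnk2 at 45.5, Kcnh2 at 16.5 and Kcnip3 at 16.0 TPM, with SDs of 50.2 and 46.5 TPM for the first 2, which rest on wild type 1. The leading 5 made up 55.0% of the family's summed TPM in tumours, 53.5% in hyperplasia and 55.5% in wild type.

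The summed level of all members was 576, 382 and 569.6 TPM in tumours, 504, 436 and 592 TPM in hyperplasia and 397, 348 and 372 TPM in wild type. K2P leak channels took 38.8%, 23.5% and 41.4% of it in tumours, 33.4%, 34.1% and 46.2% in hyperplasia and 40.9%, 31.3% and 31.8% in wild type. Accessory subunits took 53.3% in tumour 2, against 22.9% and 18.1% in tumours 1 and 3, 20.2% to 33.8% in hyperplasia and 28.6% to 42.1% in wild type. Pores of the EAG, ERG and ELK groups took 7.71%, 6.39% and 11.7% in tumours, 4.88% to 8.18% in hyperplasia and 3.85% to 7.35% in wild type. Pores of the Kv1 to Kv4 groups took 1.90% to 4.11% in tumours, 3.97% to 7.41% in hyperplasia and 3.45% to 9.99% in wild type.

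**Figure D4:**
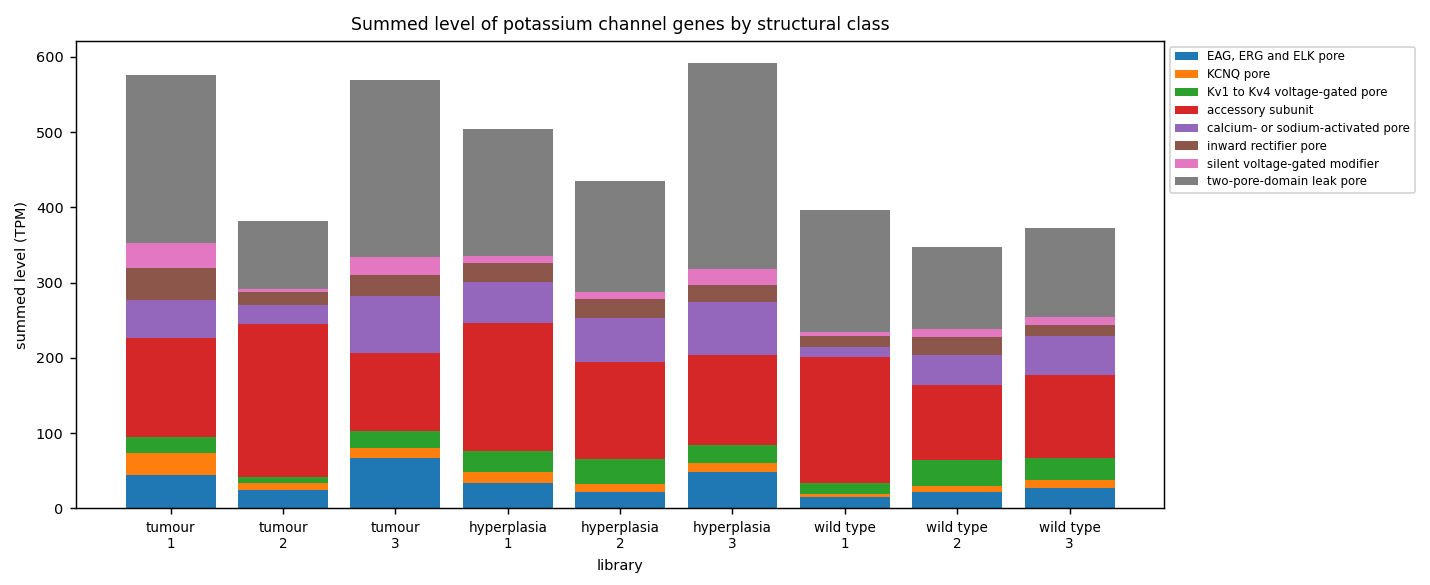
Summed TPM of the 94 members by structural class (stacked bars) in each library, with tumours, hyperplasias and wild types from left to right. K2P leak channels and accessory subunits fill most of every bar, and tumour 2 has a small leak-channel part and a large accessory part, most of it Kcne4.

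Other channels of excitable cells were described from lists beside the family. The sodium channel list had 15 genes, the voltage-gated Scn genes and the leak channel Nalcn, of which 11 were tested in tumours against wild type. Of the 11, 1 was called (9.09%, against 1.60% of all genes), which was Nalcn and no Scn gene. At an unadjusted p under 0.05, 4 were lower and 0 higher (36.4%, against 20.1% of all genes). Of the 11, 9 were fitted lower, and the median log2 fold change was -1.07, against 0.01 for all genes. The called one, Nalcn, a sodium leak channel, stood at 0.265, 0.293 and 0.420 CPM in tumours and 1.29, 2.06 and 2.41 CPM in wild type (-2.54, SE 0.50, edgeR adjusted p = 0.0464). Among 26 voltage-gated calcium channel genes 18 were tested and 0 were called. Of the 18, 4 stood at an unadjusted p under 0.05 (22.2%, near the 20.1% of all genes). The median of the 18 was -0.12. Of the 4 hyperpolarisation-activated (Hcn) genes 3 were tested, 0 were called and 1 stood at an unadjusted p under 0.05 (33.3%, against 20.1%). Of 11 partners of potassium channels outside the Kcn symbols, such as Abcc9, Dpp6 and Amigo1, 8 were tested, and 0 were called or stood at an unadjusted p under 0.05 (median 0.06).

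The 35 members too low to be tested stood under 1 CPM in every library (highest 0.878 CPM), and Kcnv1, Kcnj1, Kcna10 and Kcnj13 had 0 counts in all 9. Over a group, a count of 0 allows up to 0.0805 CPM in tumours, 0.0562 CPM in hyperplasia and 0.0551 CPM in wild type, taking 3 counts over the TMM-scaled library sizes as the limit and counting error only. Some members share exon bases with a gene on the other strand, and whether the counting used strand is not given here. For Kcnk2 and A430027H14Rik this was 12.2% of Kcnk2's exon bases, for Kcnj3 and Gm26794 31.1%, and for Kcnk3 and Gm9899 5.76%; the partners stood at mean levels of 4.54, 1.76 and 6.68 CPM. For the called members Kcnab3 (with Kcnab3os) and Kcnq5 (with Gm26580) it was 5.13% and 3.08%, with partners at 0.229 and 0.232 CPM. The expected counts of 14 members were not whole in at least 1 library, Kcnk2, Kcnk3 and Kcnh7 in all 9, and reads shared with other genes make their levels less certain.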

How the data were processed

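RNA was taken from dissected mouse ovaries with Trizol and made into stranded TruSeq mRNA libraries, per the labels' protocols. Tools named in the submitters' processing notes are STAR 2.7.1a and RSEM 1.3.1, with FastQC and Picard 2.8.1, on the build GRCm38. The authors deposited, for each sample, a gene table with RSEM expected counts, TPM and FPKM. No scaling was applied by the authors to the expected counts; of the values above 0, 25.6% were fractional, since RSEM divides ambiguous reads among genes. The authors' TPM, corrected for length and depth, gave the levels per length and 1 kind of alternative. FPKM, also deposited, entered no result.

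Expected counts were rounded and tested with edgeR 4.0.16 (R 4.3.3): TMM scaling (factors 0.797 to 1.078), low-count filtering by filterByExpr (at least 10 counts, total at least 15), and quasi-likelihood tests in 1 fit over all 9 libraries and 3 group means. Benjamini-Hochberg adjustment ran over all 16213 genes and calls were made at 0.05. The fit gave a common biological coefficient of variation of 0.432 and, for tumour over wild type, a median SE of 0.383 (log2). The pipeline was tested on simulated data. Every pair of libraries differed by more than sampling noise (smallest chi-square per degree of freedom 26.52). Alternatives were the size factors and Wald test of DESeq2 1.42.0, limma 3.58.1 with voom, limma on log2(TPM + 1) and log2(TPM + 0.1), no filter, only the groups compared, a term for the title stem that hyperplasia 3 and tumour 3 share, and each library left out.

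Full values go to 22 members: those called in any comparison, the 5 highest and 5 lowest non-overlapping fold changes per comparison among members with a mean of at least 1 CPM, the 5 highest mean TPM per group, and the highest member of each class. Some members are not reported here by name, but count in the totals. Other members are named to account for the family, and were chosen after their values were seen. The members, classes and lists were chosen with earlier results of these data known. Lists that were described are granulosa, luteal, oocyte, smooth muscle, macrophage, neuron and surface epithelium markers, sodium, calcium and Hcn channels, and potassium channel partners. Promoters are from RefSeq (GRCm38.p6) and were matched by symbol for 69 of the 94 members. Gene coordinates and symbols are from GENCODE M21 on GRCm38.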

Additional observations from a re-analysis of the deposited data

Results flagged for a closer look

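In CPM, Kcnn4 lay higher in every hyperplasia than in every wild type, and lower in every tumour than in every wild type. It stood at 1.13, 0.780 and 1.34 CPM in tumours, 2.36, 2.54 and 2.35 CPM in hyperplasia and 2.29, 2.18 and 2.18 CPM in wild type. The gap of hyperplasia over wild type was narrow, 2.35 CPM (49 counts) in hyperplasia 3 against 2.29 CPM (46 counts) in wild type 1. Counting error alone could close it. Per length, neither separation from wild type held. Tumour 3 (1.70 TPM) lay above wild type 1 (1.40 TPM), and hyperplasia 3 (2.11 TPM) below wild type 2 (2.15 TPM). The direct difference of tumour over hyperplasia was -1.15 on the log2 scale (SE 0.38) and did not pass edgeR's test (adjusted p = 0.243). Both comparisons use the same 3 wild-type libraries.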

How the results depend on the processing

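For tumour against wild type, edgeR called 4 members and 259 genes. The calls were 17 and 1747 with DESeq2's Wald test, 9 and 726 with no filter, 2 and 428 on log2(TPM + 1), 2 and 461 on log2(TPM + 0.1), and 0 and 0 with a term for the shared title stem (21 members and 2610 genes at an unadjusted p under 0.05), where the 4 members stood at an adjusted p of 0.0585 to 0.0730. Leaving out 1 library gave 0 to 6 members and 0 to 404 genes. Leaving out tumour 2 and wild type 1 together, an alternative chosen after seeing the data, gave 0 members and 8 genes. For hyperplasia against wild type 0 members were called under every alternative; over all genes edgeR called 0, DESeq2 19, no filter 2, log2(TPM + 1) 1, only the groups compared 3, and leaving out 1 library 0 to 3. For tumour against hyperplasia edgeR called 0 members and 30 genes, DESeq2 7 and 816, no filter 2 and 199, log2(TPM + 1) 1 and 76, and log2(TPM + 0.1) 1 and 115. Over all genes it was 4 with limma-voom, 1 with only the groups compared and 12 with the title stem, and leaving out 1 library gave 0 to 1 member and 0 to 128 genes. For all FOXL2 WT/C134W libraries against wild type edgeR called 0 members and 2 genes, DESeq2 9 and 591, and no filter 3 and 333. Over all genes it was 198 with limma-voom, 173 on log2(TPM + 1), 145 on log2(TPM + 0.1) and 0 with the title stem, and leaving out 1 library gave 0 members and 0.0% to 0.806% of genes.

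The members' median moved once, to -0.55 for tumour against hyperplasia on log2(TPM + 0.1). TPM scaling itself shifted the median of all genes, to -0.12 and -0.15 for tumour over wild type and to -0.23 and -0.29 for tumour over hyperplasia. Leaving out 1 library, the members' median was -0.13 to 0.11 for tumour over wild type, 0.22 to 0.47 for hyperplasia over wild type, -0.33 to -0.13 for tumour over hyperplasia and 0.01 to 0.29 for all FOXL2 WT/C134W libraries over wild type. Of 746 alternative values for 43 fold changes of 22 named members, 0 changed direction, 40 lost a call (all in the 4 called members) and 33 gained one, 18 of them with DESeq2's Wald test. The causes were not tested. Many of the 43 were named because they were called or their groups did not overlap. Leaving out 1 library can hardly reverse those, so the 0 is partly fixed by the choice. Over 19 settings, Kcnk5 was called in 11 (1.78 to 2.44), Kcnab3 in 9 (-4.26 to -2.74), Kcnq5 in 8 (2.14 to 3.35) and Kcna2 in 8 (-4.32 to -0.27, the last on log2(TPM + 1)). The labels give no replicate numbers, so samples were not paired by number; the title stem was the one link between groups that could be blocked on, and that term ended all 4 calls. Kcna2 rests on 5 counts over the tumours, so its level there is known only to that depth, and 3 samples a group limit every comparison.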
